A study of Mus musculus with 6 samples.

Results

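The TNF superfamily joins ligands related to tumour necrosis factor with the receptors that bind them. It was taken here as every row of the deposited gene table whose symbol begins with Tnfsf or Tnfrsf and a number, together with Tnf, Lta, Ltb, Ltbr, Fas, Fasl, Cd40, Cd40lg, Cd27, Cd70 and Eda2r. That gave 39 of the 17761 genes in the table, 14 ligands and 25 receptors, and Cd70 was not analysed here. RNA was sequenced from mouse tissue of 3 Control and 3 Model samples. Model tissue was inferior vena cava, the large vein of the lower body, taken with its thrombus 24 h after the vein had been ligated. All 6 samples carry the tissue label thrombus. The sources used here do not give strain, age, sex, genotype or what was done to the Control animals.

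Ligands of this family are trimers, made at the cell surface or shed from it, that draw receptors together. Receptors with a death domain, such as those for TNF and Fas ligand, can recruit caspases or, through adaptors, the transcription factor NF-kB. Receptors without one bind TRAF adaptors and signal to NF-kB and kinases, in stromal and myeloid cells as well as in lymphocytes, where several act as costimulators. Decoy receptors bind ligand without passing a signal on. In vessel walls, TNF is known for switching endothelial cells towards leukocyte adhesion.

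Total counts ran from 31924426 to 38118463 per Control library and from 25336173 to 28193281 per Model library. Levels are CPM, a gene's counts relative to the library total after scaling by the trimmed mean of M values. A library in which a gene has 0 counts may hold up to 3, or 0.0730 to 0.121 CPM. Endothelial markers summed to between 1805 and 2695 CPM over the 6 libraries. Smooth muscle markers summed to 2965 to 4572 CPM over the Control libraries and 1133 to 2664 CPM over the Model libraries. Both cell types of the vein were thus present in each library, with summed smooth muscle markers lower in Model. Summed fibroblast markers were lower in Model too, at 4006 to 6807 CPM over Control and 2964 to 3304 CPM over Model libraries. By the edgeR test used below, 1 of 8 fibroblast markers was lower (Col14a1) and 0 higher, and 0 of 7 smooth muscle markers passed. Fold changes were positive for 2 fibroblast markers (Dcn and Pdgfra) and negative for 6. The 4 of them that were lower in every Model library were collagen genes. The summed CPM of platelet and megakaryocyte markers was 62.3 to 155 over the Control libraries and 464 to 1227 over the Model libraries. For neutrophil markers it was 146 to 281 and 3836 to 7929. Control 1 correlated less with the other Control libraries (r of log2 CPM 0.825 and 0.815) than these did with each other (0.904), and liver markers summed to 4954 CPM in Model 2 against at most 579 CPM elsewhere. Member counts are therefore also given without both libraries. Whether a group's samples are separate animals is not stated, so p-values reflect the spread over these libraries only, and that spread may be technical.

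Of the 39 members, 35 passed the filter on low counts, and 3 of them passed the test. Tnfrsf1a, the death-domain receptor for TNF, was higher in Model, and Cd27, a costimulatory receptor of T cells, and Ltb, which encodes the lymphotoxin beta chain, were lower. This is 1 higher member (2.86% of those tested) and 2 lower ones (5.71%) by the quasi-likelihood test of edgeR, Benjamini-Hochberg adjusted at 0.05. Over all 13907 tested genes, 2.71% were called higher, 1.36% lower and 4.07% either way, so the number of higher members was close to the background, and 2 lower members are too few to read against it. The median log2 fold change was -0.23 over the 35 members and -0.01 over all tested genes, with 17 members above 0 and 18 below. An unadjusted p under 0.05 was found for 8 members (22.9%, against 15.8% of all tested genes). DESeq2 called 3 members higher and 2 lower, where it called 4.59% and 4.16% of all genes. Without a filter edgeR also called 3 higher and 2 lower (3.61% and 2.64% of all genes). Without Control 1 and Model 2 together it called 1 higher and 0 lower (1.55% and 0.439% of all genes), and limma-voom called 1 higher and 0 lower (2.50% and 0.827% of all genes).

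**Figure D1:**
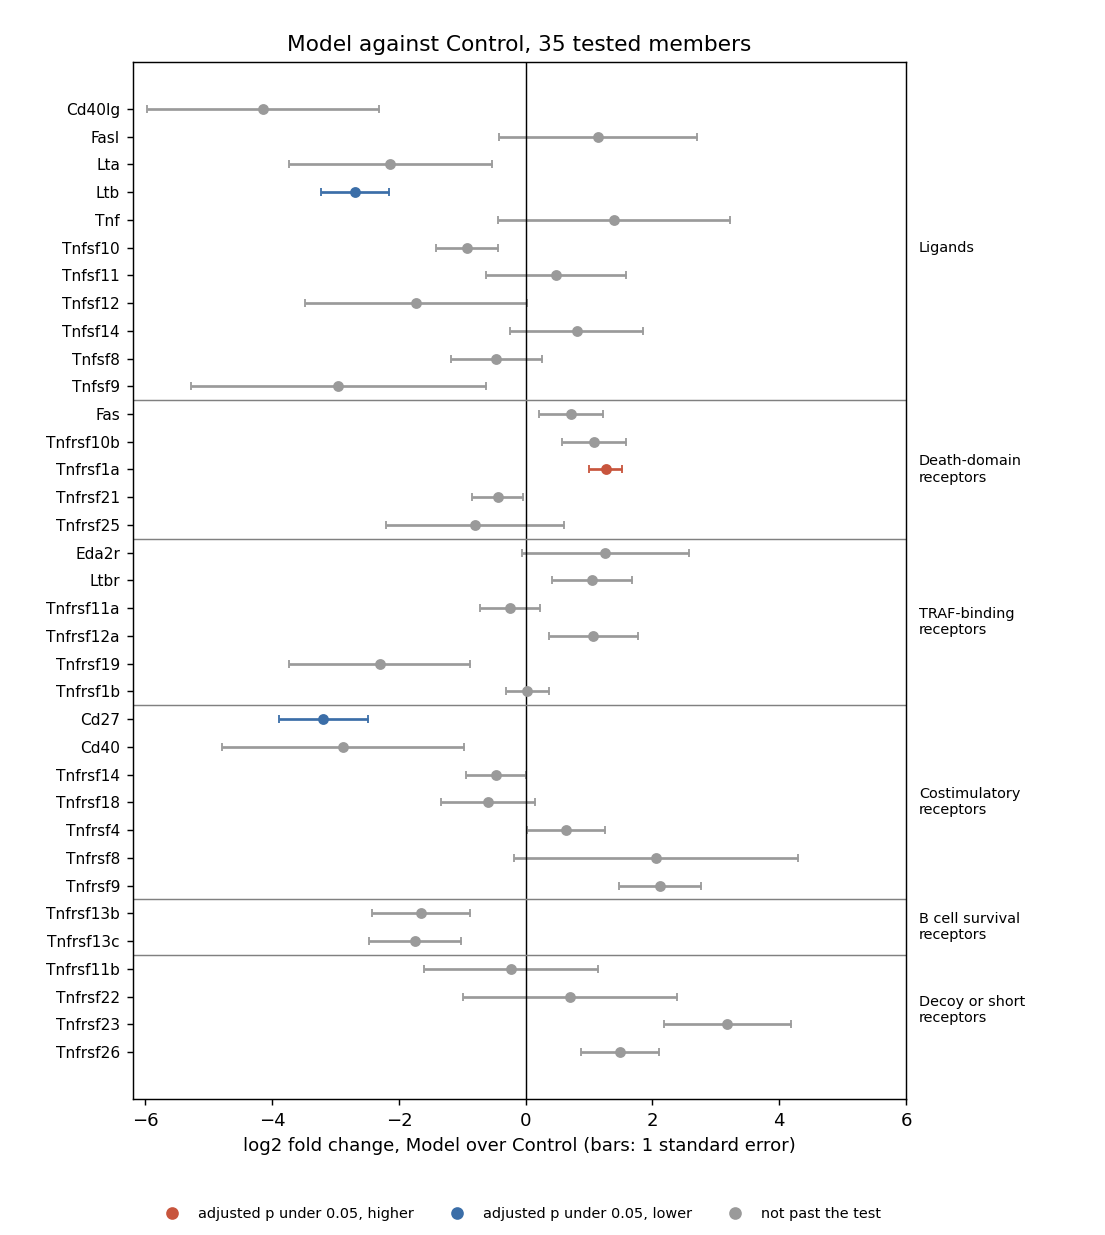
Log2 fold change of Model over Control for each of the 35 tested members, grouped by role, with bars of 1 standard error (SE). Tnfrsf1a at 1.26 is the coloured point above 0, Cd27 at -3.20 and Ltb at -2.69 are those below 0, and several grey points lie farther from 0 with wider bars.

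Of the 39 members, 21 lie in 9 clusters with gaps of at most 500 kb, and the 3 called members are among them. Cd27, Ltbr and Tnfrsf1a lie within 130 kb of chromosome 6, and Ltb, Tnf and Lta within 10.9 kb of chromosome 17. At each of these 2 loci a called member was lower while a neighbour had a higher mean in Model. On chromosome 17 that neighbour was Tnf, which did not pass the test (edgeR log2 fold change 1.39, SE 1.83, adjusted p = 0.799). Lta had a negative fold change there, as Ltb did. Promoter windows of the called genes and of Tnf, the neighbour of Ltb and a ligand of the Tnfrsf1a receptor, are shown because they are the starts of neighbouring genes whose fold changes had opposite signs. Each runs from 250 bases before to 50 bases after the RefSeq start on GRCm38.p6, 5′ to 3′ on the gene's strand. They are chr6:125236978-125237277 on the minus strand for Cd27, chr6:125349473-125349772 on the plus strand for Tnfrsf1a, chr17:35194257-35194556 on the plus strand for Ltb and chr17:35201958-35202257 on the minus strand for Tnf. Capitals mark matches on either strand to the NF-kB consensus, to the Sp1 box GGGCGG or to the TATA box TATAAA.
Cd27: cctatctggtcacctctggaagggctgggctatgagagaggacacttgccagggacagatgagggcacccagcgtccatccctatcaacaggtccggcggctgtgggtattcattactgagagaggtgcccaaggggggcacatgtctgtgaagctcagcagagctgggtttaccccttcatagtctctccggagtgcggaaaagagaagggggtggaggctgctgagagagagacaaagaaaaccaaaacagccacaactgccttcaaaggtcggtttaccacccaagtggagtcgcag
Tnfrsf1a: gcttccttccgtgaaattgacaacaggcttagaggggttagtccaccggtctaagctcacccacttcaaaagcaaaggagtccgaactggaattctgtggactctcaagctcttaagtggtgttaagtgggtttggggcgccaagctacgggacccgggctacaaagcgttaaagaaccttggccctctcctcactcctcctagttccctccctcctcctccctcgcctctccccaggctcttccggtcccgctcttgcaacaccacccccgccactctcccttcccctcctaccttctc
Ltb: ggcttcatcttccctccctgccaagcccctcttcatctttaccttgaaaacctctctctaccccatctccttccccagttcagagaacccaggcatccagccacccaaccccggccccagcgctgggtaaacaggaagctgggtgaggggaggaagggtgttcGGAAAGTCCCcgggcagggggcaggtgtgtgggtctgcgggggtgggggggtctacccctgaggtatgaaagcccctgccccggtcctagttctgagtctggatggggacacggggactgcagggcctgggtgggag
Tnf: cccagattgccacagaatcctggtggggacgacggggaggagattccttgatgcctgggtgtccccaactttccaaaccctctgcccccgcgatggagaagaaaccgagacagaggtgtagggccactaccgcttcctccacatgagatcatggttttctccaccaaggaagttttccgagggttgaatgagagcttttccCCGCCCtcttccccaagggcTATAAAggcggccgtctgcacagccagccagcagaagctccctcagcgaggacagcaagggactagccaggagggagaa

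The Ltb window held 1 NF-kB match, whose first base was at position -87 from the start, and the Tnf window 1 Sp1 box at -49 and 1 TATA box at -29. These matches did not overlap, and the Cd27 and Tnfrsf1a windows held no match to the 3 motifs. An NF-kB match was found in 8.46% of all 32851 promoter windows of this length, a Sp1 box in 35.7% and a TATA box in 13.6%. Among the 33 windows of the 30 members with a window, the shares were 12.1%, 51.5% and 18.2%. A match describes letters in this window and is not a shown binding site. G and C made up 56.0% of the Cd27 window, 57.0% of the Tnfrsf1a window, 63.3% of the Ltb window and 58.0% of the Tnf window, against a median of 52.7% over all windows.

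Among the ligands, Ltb stood out by its level in Control and by its fall. It encodes the membrane-bound chain that joins lymphotoxin alpha in a heterotrimer, the ligand of the lymphotoxin beta receptor, and is made mainly by lymphocytes. Ltb (ENSMUSG00000024399, chromosome 17, 35194439 to 35196320 of GRCm38) was at 120, 27.3 and 73.1 CPM in Control 1 to 3 and at 9.90, 13.1 and 10.99 CPM in Model 1 to 3. The groups did not overlap, and the Model libraries lay close together while the Control libraries spread widely. Its mean fell from 73.5 ± 46.3 to 11.3 ± 1.65 CPM (SD, n = 3 each), and the edgeR log2 fold change was -2.69 (SE 0.53, adjusted p = 0.0138). Per kilobase of exon, it had the highest mean level of all 39 members in Control, 48.5 ± 30.5 CPM per kb, and ranked 13 in Model with 7.48 ± 1.09 CPM per kb. The call was lost without Control 1 (adjusted p = 0.0686), Model 1 (0.0636) or Control 1 and Model 2 together (0.127), and with limma-voom (0.202).

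Lta and Tnf, which lie next to Ltb, were scarce and did not pass the test. Lta encodes lymphotoxin alpha, a secreted ligand of both TNF receptors and the partner of the Ltb product. It was at 5.605, 1.36 and 5.71 CPM in Control and 0.485, 0.583 and 1.81 CPM in Model (edgeR log2 fold change -2.13, SE 1.605, adjusted p = 0.590). Only Model 3 reached into the Control range. Tnf, the founding ligand of the family and a cytokine of acute inflammation, was at 0.170, 0.657 and 4.83 CPM in Control and 0.0404, 6.19 and 8.63 CPM in Model (edgeR log2 fold change 1.39, SE 1.83, adjusted p = 0.799). Model 2 and Model 3 were above every Control library, but Model 1 held 1 count, the lowest of all 6, so the groups overlapped. With 1 library left out, the log2 fold change ran from 0.72 (without Model 3) to 3.57 (without Control 3). At 3.02 ± 2.70 CPM per kb in Model, Tnf ranked 22 of the 39 members.

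**Figure D2:**
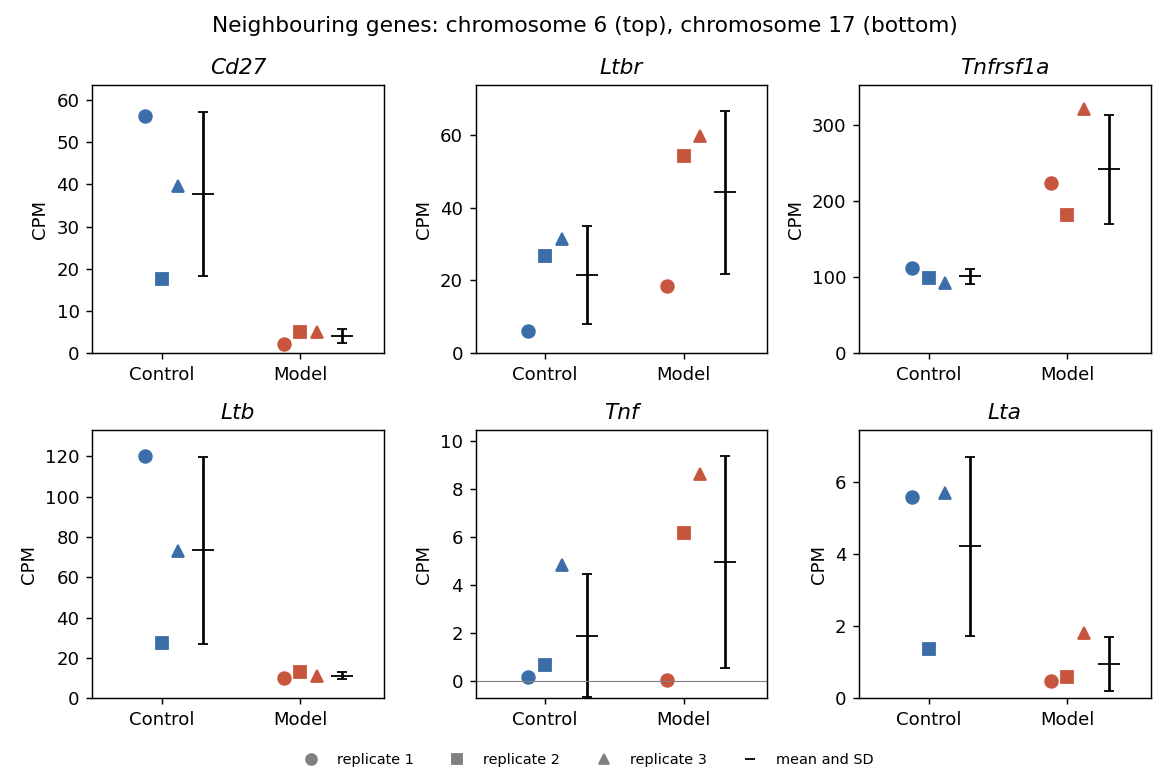
CPM of the 3 neighbouring members on chromosome 6 (top) and on chromosome 17 (bottom) in each library, with the mean and SD of each group beside the points. Cd27 and Ltb are lower in all 3 Model libraries, Tnfrsf1a is higher in all 3, and Ltbr, Tnf and Lta overlap between the groups.

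None of the other 8 tested ligands passed the test. Cd40lg, the T cell ligand of CD40, had the largest negative fold change among the tested members, from 0.142, 6.31 and 13.6 CPM in Control to 0.606, 0.364 and 0.158 CPM in Model (edgeR log2 fold change -4.14, SE 1.83, adjusted p = 0.293). Control 1, at 5 counts, lay below every Model library in CPM, although Model 3 held only 4 counts, and the groups overlapped. Tnfsf10 encodes TRAIL, which binds the death receptor encoded by Tnfrsf10b, and was the most abundant of these ligands per kilobase in both groups. It was at 31.1, 45.5 and 91.8 CPM in Control and 21.5, 42.3 and 24.7 CPM in Model (edgeR log2 fold change -0.93, SE 0.49, adjusted p = 0.388). Fasl, the ligand of Fas on cytotoxic lymphocytes, had a mean of 2.40 ± 2.19 CPM in Control against 5.30 ± 2.49 CPM in Model. Tnfsf14, which encodes LIGHT, a ligand of the lymphotoxin beta receptor and of the Tnfrsf14 product, was at 5.46 ± 3.30 and 9.54 ± 2.31 CPM. Tnfsf11, the gene for RANKL, the ligand that drives osteoclast formation, was at 5.99 ± 4.66 and 8.34 ± 4.32 CPM. Tnfsf8, which encodes the ligand of CD30, was at 23.7 ± 19.8 and 17.1 ± 9.27 CPM. For these 4 genes log2 fold changes ran from -0.47 to 1.14, with edgeR adjusted p-values from 0.797 to 0.900, and the groups overlapped.

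Several ligands were detected in single libraries of a group and near 0 in others. Tnfsf12, which encodes TWEAK, was at 0.311, 4.02 and 16.4 CPM in Control and 0.121, 5.83 and 0.315 CPM in Model. Tnfsf9, a costimulatory ligand, was at 8.38 CPM in Control 1 and at no more than 1.103 CPM in the other 5 libraries. The edgeR log2 fold changes were -1.73 for Tnfsf12 (SE 1.75, adjusted p = 0.720) and -2.95 for Tnfsf9 (SE 2.33, adjusted p = 0.614), and the latter turned to 0.45 without Control 1. That of Tnfsf12 was -0.055 without Control 3 and -4.97 without Model 2. Tnfsf13, which encodes APRIL, a survival factor of plasma cells, reached 2.99 CPM in Control 2 and 7.64 CPM in Model 1 and no more than 0.236 CPM elsewhere, and it was not tested. Of the exons of Tnfsf13, 60.0% are shared with a read-through gene on the same strand that also covers 48.3% of those of Tnfsf12, so the split of reads between them is uncertain. Tnfsf15, also not tested, reached 1.63 CPM in Control 2 and 2.48 CPM in Model 2. Tnfsf4, the ligand of OX40, held 0 counts in all 3 Control libraries and 1, 32 and 24 counts in Model 1 to 3. Against a floor of 3 counts per Control library, its Model mean of 0.717 CPM was at least 8.73-fold higher, and it was not tested. Model 1, at 1 count, was itself under 3 counts, so this fold rests on Model 2 and Model 3.

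Among the death-domain receptors, Tnfrsf1a was the 1 member that passed the test. It encodes the receptor through which soluble TNF acts on most cell types, and its death domain recruits the adaptor TRADD. Tnfrsf1a (ENSMUSG00000030341, chromosome 6, 125349362 to 125362484 of GRCm38) was at 112, 99.2 and 91.9 CPM in Control 1 to 3 and at 223, 182 and 321 CPM in Model 1 to 3. Every Model library was above every Control library, and the Control libraries lay close together. The mean rose from 101 ± 10.3 to 242 ± 71.8 CPM, and the edgeR log2 fold change was 1.26 (SE 0.27, adjusted p = 0.0187). In raw reads these are 3122 to 4076 counts per Control library and 4988 to 8160 per Model library, so counting error is small beside the spread between libraries. Per kilobase of exon it had the highest mean level of all members in Model, 93.5 ± 27.7 CPM per kb. It lost its call without Control 2 (adjusted p = 0.0589), Control 3 (0.0813), Model 1 (0.0549) or Model 3 (0.0858), and kept it without Control 1 and Model 2 together (0.0361), with limma-voom (0.0199) and with DESeq2 (8.43e-04). Neutrophil markers rose beside it, with 10 of 11 tested called higher and 0 lower. Of those not tested, Ly6g held 0 counts in each Control library and 1, 337 and 147 in Model. Camp did not rise, with 48 counts in Control 2 and at most 1 elsewhere. Platelet and megakaryocyte markers rose too, with 8 of 10 called higher. So did 5 of 6 tested erythroid markers, whose summed CPM was 323 to 446 over the Control libraries and 4894 to 28683 over the Model libraries. Of 8 tested monocyte and macrophage markers, edgeR called 0, with 3 positive and 5 negative fold changes. Their list summed to 362 to 732 CPM over Control and 272 to 516 CPM over Model libraries, and the groups overlapped. The summed endothelial markers overlapped between the groups, with Emcn called higher and 0 of 8 lower, although 2 of the 8 were higher and 2 lower in every Model library. The part of these cell types in the rise of Tnfrsf1a was not tested.

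The remaining death-domain receptors did not pass the test. Fas, the receptor that couples Fas ligand to caspase activation, was at 12.7, 22.2 and 29.5 CPM in Control and 31.1, 33.5 and 41.0 CPM in Model (edgeR log2 fold change 0.71, SE 0.50, adjusted p = 0.552). Its groups did not overlap, although Control 3 and Model 1 were near each other. Tnfrsf10b, the mouse TRAIL receptor with a death domain, was at 34.9, 16.8 and 20.7 CPM in Control and 85.2, 29.9 and 38.3 CPM in Model (edgeR log2 fold change 1.08, SE 0.51, adjusted p = 0.326). Model 2 lay below Control 1. Tnfrsf21, known as death receptor 6, was at 47.0 ± 5.89 and 34.7 ± 10.2 CPM, and Tnfrsf25, a death receptor of T cells, at 5.55 ± 4.67 and 3.20 ± 1.85 CPM.

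Both TNF receptors were abundant, and the fold change of Tnfrsf1b was near 0. Tnfrsf1b encodes the TRAF-binding TNF receptor, found mainly on leukocytes and endothelium and activated best by membrane-bound TNF. It was at 146, 56.8 and 117 CPM in Control and 90.0, 122.8 and 114 CPM in Model (edgeR log2 fold change 0.03, SE 0.34, adjusted p = 0.986). All 3 Model libraries lay within the Control range. Per kilobase of exon, the ratio of Tnfrsf1a to Tnfrsf1b was 1.13, 2.57 and 1.16 in Control and 3.66, 2.18 and 4.16 in Model. By this measure the Tnfrsf1a level was above that of Tnfrsf1b in each library, and Control 2 and Model 2 made the ratios of the groups overlap. In CPM, without exon length, Tnfrsf1b was above Tnfrsf1a in Control 1 (146 against 112) and Control 3 (117 against 91.9). The order in these libraries thus rests on the exon lengths used.

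The other TRAF-binding receptors of stromal and myeloid cells did not pass the test either, with edgeR adjusted p-values of 0.475 or more for these 5 genes. Ltbr, the receptor of the lymphotoxin heterotrimer and of LIGHT, lies between Cd27 and Tnfrsf1a. It was at 6.199, 26.6 and 31.5 CPM in Control and 18.5, 54.2 and 59.7 CPM in Model (edgeR log2 fold change 1.04, SE 0.63, adjusted p = 0.475). Control 1 was the lowest library and Model 1 lay below Control 2 and Control 3. Tnfrsf12a encodes Fn14, the TWEAK receptor that is induced in wounded tissue. It was at 37.2, 9.79 and 4.71 CPM in Control and 33.4, 26.1 and 48.7 CPM in Model (edgeR log2 fold change 1.07, SE 0.70, adjusted p = 0.520). Control 1 was again apart, here within the Model range, and the log2 fold change was 2.31 without it (adjusted p = 0.0837) and 0.61 without Control 3. Tnfrsf11a, the gene for RANK, was at 34.5 ± 11.9 and 29.2 ± 8.17 CPM, and Eda2r, a receptor for a form of ectodysplasin, at 3.004 ± 2.12 and 7.19 ± 4.62 CPM. Tnfrsf19, which encodes the receptor TROY, was at 7.42, 3.65 and 8.98 CPM in Control and 0.364, 2.51 and 1.18 CPM in Model (edgeR log2 fold change -2.30, SE 1.43, adjusted p = 0.486), with no overlap between the groups.

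Cd27 fell among the 7 costimulatory receptors. Its product is found on T cells, some B cells and NK cells, and is engaged by CD70. Cd27 (ENSMUSG00000030336, chromosome 6, 125232622 to 125237010 of GRCm38) was at 56.2, 17.6 and 39.5 CPM in Control 1 to 3 and at 2.18, 5.13 and 5.04 CPM in Model 1 to 3. Every Model library was below every Control library. The mean fell from 37.8 ± 19.4 to 4.12 ± 1.68 CPM, and the edgeR log2 fold change was -3.20 (SE 0.70, adjusted p = 0.0237). Its mean level per kilobase ranked 6 of 39 in Control and 24 in Model. The call was lost without Control 1 (adjusted p = 0.106), Control 3 (0.0922), Model 1 (0.0648) or Control 1 and Model 2 together (0.156), and with limma-voom (0.212). It was also lost with the replicate number as a block (edgeR adjusted p = 0.0577).

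Cd27 and Ltb moved with T and NK cell and B cell markers. T and NK cell markers summed to 1550, 615 and 849 CPM in Control and 395, 388 and 225 CPM in Model, and 6 of 12 were called lower and 0 higher. B cell markers summed to 1548, 906 and 1130 CPM in Control and 588, 434 and 300 CPM in Model, and 4 of 10 tested rows were called lower and 0 higher. No marker of either list in the table was at 0 in any library. Relative to the summed T and NK cell markers, Cd27 was at 3.63%, 2.86% and 4.65% in Control and 0.552%, 1.32% and 2.24% in Model, again with no overlap. These shares depend in part on the marker Lef1, the largest of that list in each Model library. Lef1 was at 201, 109 and 126 CPM in Control and 156, 129 and 73.6 CPM in Model, and its groups overlapped. Relative to the summed markers of both lists, Ltb was at 3.87%, 1.80% and 3.70% in Control and 1.01%, 1.599% and 2.09% in Model, and here the groups overlapped. The part of these cell types in the fall of both genes was not tested, and in bulk tissue fewer cells of a type and less RNA per cell cannot be told apart. The summed plasma cell markers moved the other way. They were at 86.8 to 110 CPM over Control and 219 to 241 CPM over Model libraries, and edgeR called 1 of 4 higher (Sdc1) and 0 lower. Sdc1 was at 40.0, 59.4 and 42.1 CPM in Control and 149, 150 and 101 CPM in Model, a large part of the Model sums. Prdm1 was also higher in every Model library, while Mzb1 and Xbp1 overlapped between the groups. Whether plasma cells differed between the groups was not tested.

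**Figure D3:**
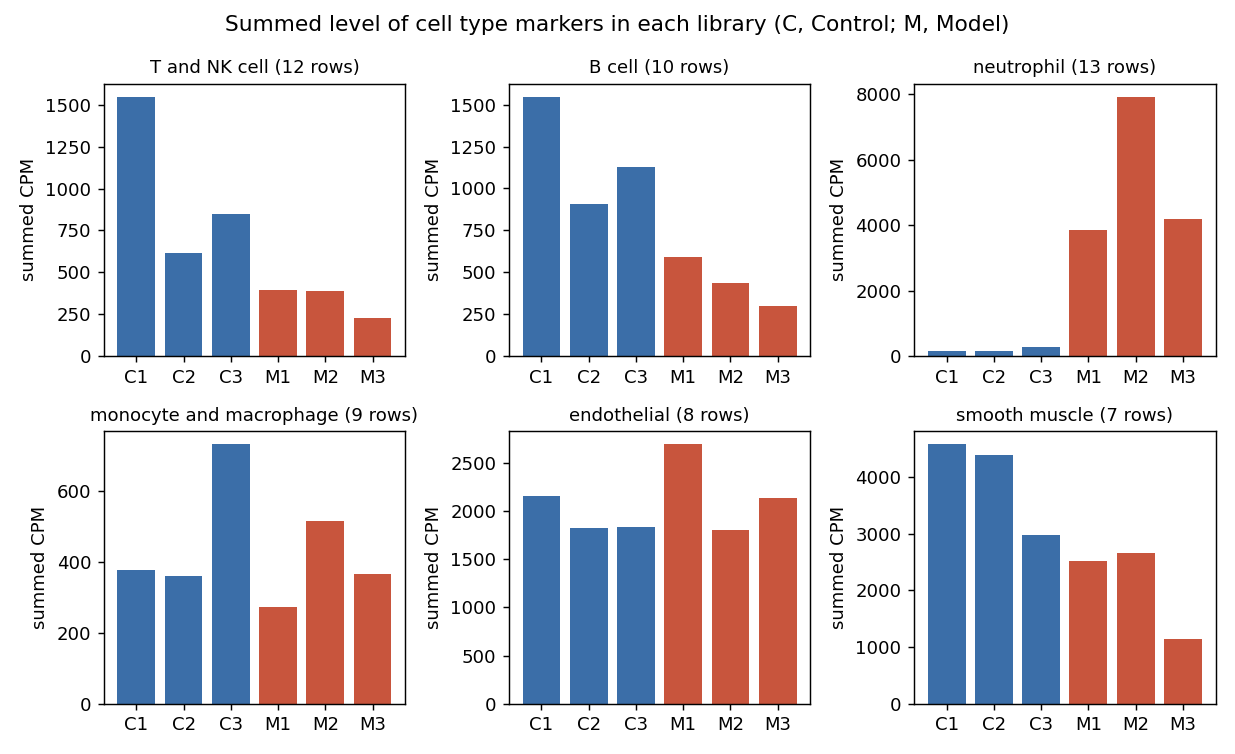
Summed CPM of marker genes of 6 cell types in each library, as bars from 0. Summed T and NK cell, B cell and smooth muscle markers are lower in all 3 Model libraries. Neutrophil markers are at 3836 CPM or more in Model and at 281 CPM or less in Control, and the summed endothelial markers overlap between the groups.

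The other costimulatory receptors went in both directions, and none passed the test. Tnfrsf9, an activation-induced receptor of T cells, NK cells and endothelium, was at 16.6, 3.26 and 15.6 CPM in Control and 33.2, 39.6 and 80.4 CPM in Model. Its groups did not overlap, and the edgeR log2 fold change was 2.11 (SE 0.64, adjusted p = 0.0992). DESeq2 called it higher (adjusted p = 0.0155), as did edgeR without a filter (0.00945). Cd40, the receptor through which T cells activate B cells and antigen-presenting cells, was at 2.89, 7.06 and 0.147 CPM in Control and 0.323, 0.801 and 0.236 CPM in Model (edgeR log2 fold change -2.88, SE 1.91, adjusted p = 0.522). Control 3 held 5 counts, fewer than any Model library. Tnfrsf14, which encodes HVEM, ranked 3 of the 39 members per kilobase in both groups, at 34.98 ± 13.9 and 25.2 ± 11.2 CPM per kb. Tnfrsf4, the gene for OX40, had a mean of 19.4 ± 13.5 CPM in Control against 30.0 ± 9.03 CPM in Model, and its neighbour Tnfrsf18, the gene for GITR, had means of 18.6 ± 9.38 and 12.2 ± 5.33 CPM. Of the exons of Tnfrsf18, 27.2% overlap an antisense gene, and without a stated strand setting its reads cannot be told from those of that gene. Tnfrsf8, which encodes CD30, stayed at or below 3.02 CPM in every library. Regulatory T cell markers, a cell type known for OX40 and GITR, had a summed CPM of 92.8 to 216 over Control and 54.6 to 135 over Model libraries, and edgeR called 0 of 4, with 1 unadjusted p under 0.05.

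The receptors for the B cell survival factors had negative fold changes, and 0 of 2 tested passed the test by edgeR, DESeq2 or limma-voom, with 1 unadjusted edgeR p under 0.05. Tnfrsf13c encodes the BAFF receptor of mature B cells and was at 54.9, 35.6 and 15.9 CPM in Control and 3.27, 10.01 and 18.5 CPM in Model (edgeR log2 fold change -1.74, SE 0.72, adjusted p = 0.254). Model 3 lay above Control 3. Tnfrsf13b, the gene for TACI, was at 15.7, 41.8 and 30.6 CPM in Control and 6.26, 3.02 and 18.8 CPM in Model (edgeR log2 fold change -1.65, SE 0.77, adjusted p = 0.324), where Model 3 lay above Control 1. Relative to the summed B cell markers, Tnfrsf13c was at 1.41% to 3.93% in Control and 0.556% to 6.17% in Model, and Tnfrsf13b at 1.01% to 4.61% and 0.697% to 6.26%. Tnfrsf17, which encodes BCMA of plasma cells, held 50 counts in Control 2 and at most 4 elsewhere, and was not tested.

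The 4 decoy and short receptors included the largest positive fold change among the tested members, and edgeR called 0 of them, with 2 unadjusted p-values under 0.05, while DESeq2 called 1. Tnfrsf23 and Tnfrsf22 encode mouse decoy receptors for TRAIL, and they lie with Tnfrsf26 within 78.2 kb of chromosome 7. Tnfrsf23 was at 0.510, 3.04 and 4.80 CPM in Control and 38.3, 8.34 and 29.2 CPM in Model. Every Model library was above every Control library, and the edgeR log2 fold change was 3.18 (SE 0.999, adjusted p = 0.112). It was called higher by DESeq2 (adjusted p = 0.00540) and by edgeR without a filter (0.0330). Tnfrsf26, a short receptor of the same cluster, was at 5.35, 12.6 and 22.0 CPM in Control and 44.8, 42.9 and 24.4 CPM in Model (edgeR log2 fold change 1.49, SE 0.61, adjusted p = 0.249), also without overlap. Tnfrsf22 was at 0.113, 5.48 and 6.57 CPM in Control and 0.0404, 14.2 and 5.52 CPM in Model, near 0 in Control 1 and Model 1 (edgeR log2 fold change 0.70, adjusted p = 0.908). Tnfrsf22 and Tnfrsf23 share 719 stretches of 50 bases, 17.3% and 18.0% of their transcripts, so the split of reads between them is uncertain. An antisense gene overlaps 4.14% of the exons of Tnfrsf23 and 3.33% of those of Tnfrsf26. Tnfrsf11b, which encodes osteoprotegerin, the secreted decoy for RANKL, was at 5.38 ± 4.34 and 4.59 ± 4.06 CPM.

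**Figure D4:**
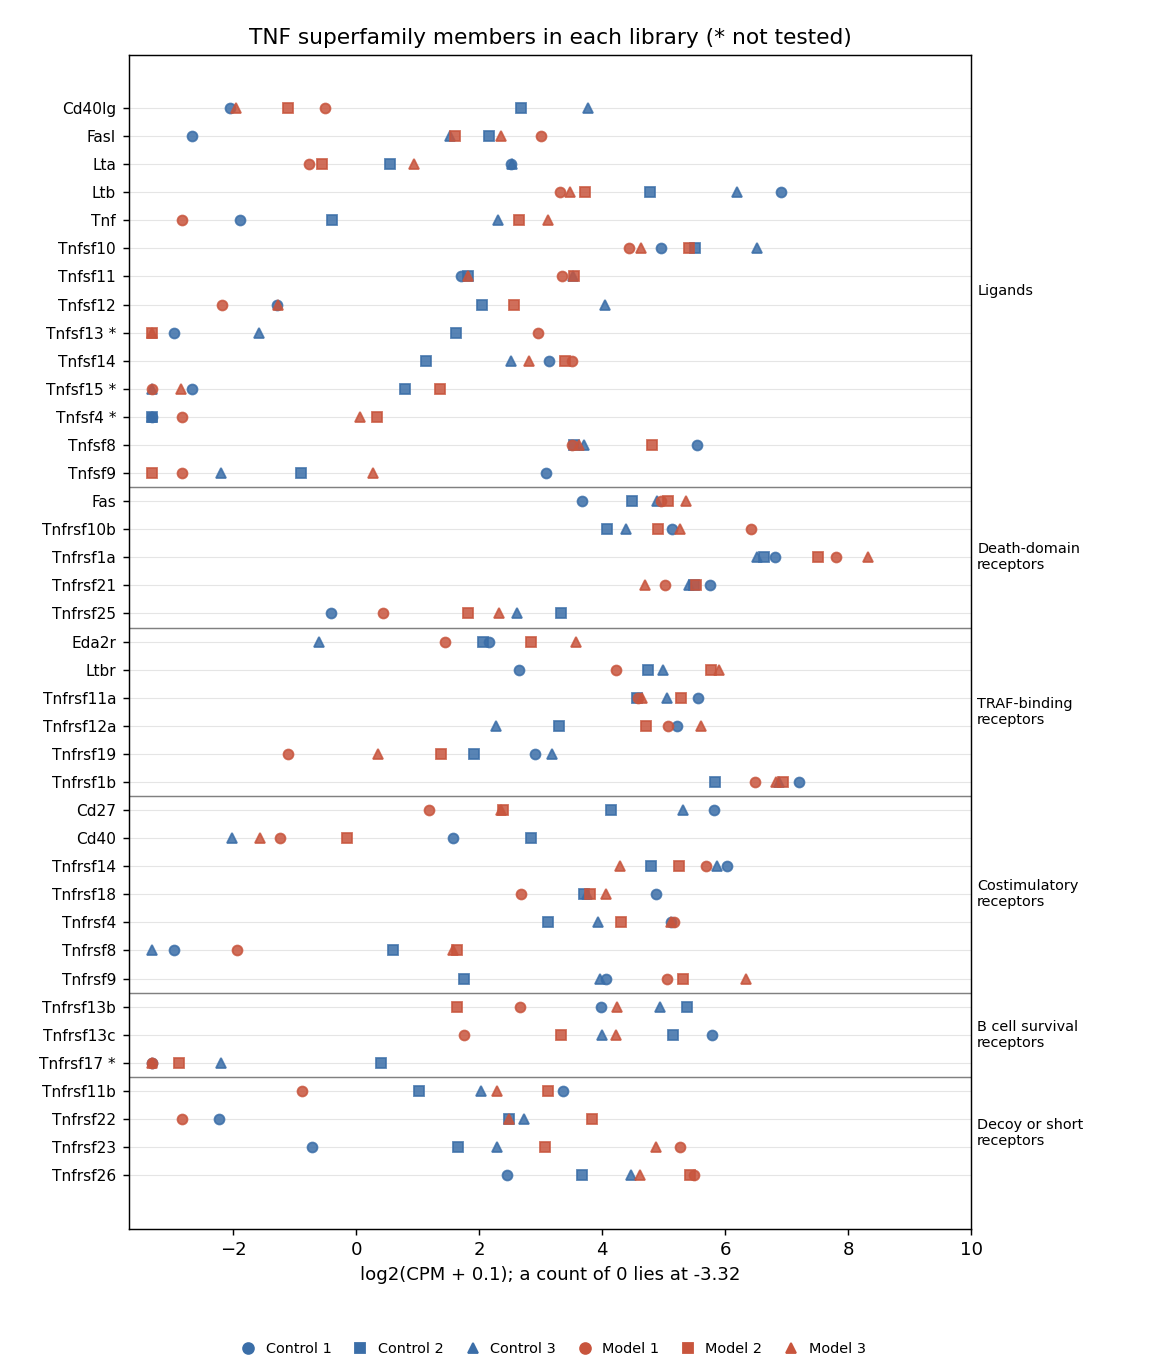
Level of each of the 39 members in each library as log2(CPM + 0.1), grouped by role, with an asterisk at the 4 members that were not tested. Control and Model points separate for Ltb, Tnfrsf1a, Fas, Tnfrsf19, Cd27, Tnfrsf9, Tnfrsf23 and Tnfrsf26 among the tested members, and many ligands scatter over the libraries of both groups.

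In all, 5 tested members were higher in every Model library than in any Control library and 3 were lower in every one, 14.3% and 8.57% of those tested. Over all tested genes these shares were 12.1% and 11.4%. All 5 that were higher (Tnfrsf1a, Fas, Tnfrsf9, Tnfrsf23 and Tnfrsf26) are receptors, as are 24 of the 35 tested members. The ligand Tnfsf4, not tested, held 1, 32 and 24 counts in Model 1 to 3 against 0 in each Control library. Model 1 lay under the floor of 3 counts, so it cannot be told from the Control libraries. The 3 that were lower were Ltb, Cd27 and Tnfrsf19. By role, the median log2 fold change was -0.93 over the 11 tested ligands and 0.33 over the 24 tested receptors, and 1 gene of each kind was called lower. The difference between ligands and receptors was not tested. The summed level of all 39 members was 979, 609 and 851 CPM in Control and 846, 878 and 1029 CPM in Model.

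Genes that carry the signal inside the cell or process the proteins were read from 6 lists of 64 genes, of which 61 were tested. Of these, 2 were called higher and 1 lower, 4.92% against 4.07% of all tested genes, with a median log2 fold change of 0.22. Furin, a protease that cleaves several precursors including those of TNF superfamily ligands, rose. It was at 45.4, 98.7 and 83.4 CPM in Control and 268, 170 and 230 CPM in Model (edgeR log2 fold change 1.55, SE 0.32, adjusted p = 0.0158), with every Model library above every Control library. Its call was lost without Model 1 (adjusted p = 0.0704). Nfkbia, the NF-kB inhibitor that NF-kB itself induces, rose from 96.1 ± 20.3 to 202 ± 53.5 CPM (edgeR log2 fold change 1.07, SE 0.28, adjusted p = 0.0497). Its call was lost without Control 1, 2 or 3 (adjusted p = 0.139, 0.168 and 0.0656), Model 1, 2 or 3 (0.0981, 0.0533 and 0.201) or Control 1 and Model 2 together (0.126), and with RLE scaling (0.0527) or limma-voom (0.0508). Ngfr, a receptor of the same superfamily outside the symbols used here that binds neurotrophins, fell from 125, 129 and 28.4 CPM in Control to 9.62, 16.7 and 23.2 CPM in Model (edgeR log2 fold change -2.51, SE 0.56, adjusted p = 0.0257). Its call was lost without Control 1 (adjusted p = 0.102), Control 2 (0.0889), Model 1 (0.104), Model 2 (0.0510) or Control 1 and Model 2 together (0.212), and with limma-voom (0.189). The call of Ngfr was also lost with the replicate number as a block.

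Calls were few in every list. By edgeR's adjusted p, 0 of 17 adaptors and ubiquitin ligases, the TRAF genes among them, were called (median log2 fold change -0.36), and 1 had an unadjusted p under 0.05. DESeq2 and limma-voom called 0 of them as well. Among the kinases and NF-kB genes, 1 of 18 was called higher (Nfkbia, median 0.25), against 2 by DESeq2 and 0 by limma-voom, and 5 had an unadjusted edgeR p under 0.05. Of 8 feedback inhibitors and deubiquitinases, edgeR called 0 (median 0.52), with 1 unadjusted p under 0.05, and DESeq2 and limma-voom each called 1 higher. Of 9 death effectors, 8 had a positive fold change (median 0.45), edgeR, DESeq2 and limma-voom called 0, and 2 had an unadjusted edgeR p under 0.05. Among the shedding and processing genes, 1 of 6 was higher (Furin, median 0.39), and of 3 tested superfamily members outside the symbols used here, 1 was lower (Ngfr, median -0.78).

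**Figure D5:**
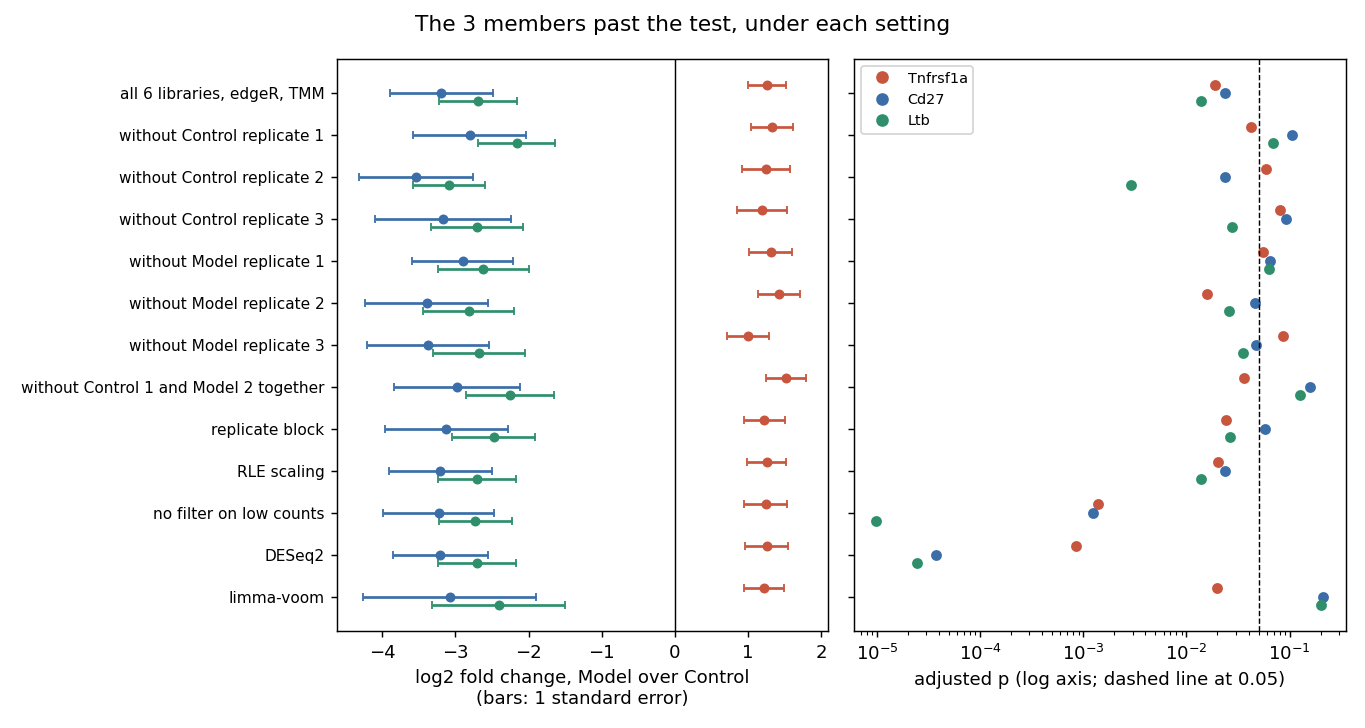
Log2 fold change with bars of 1 SE (left) and adjusted p on a log axis (right) of Tnfrsf1a, Cd27 and Ltb under the fit of all 6 libraries and 12 alternatives. The fold changes keep their sign throughout, between 1.0004 and 1.52 for Tnfrsf1a, -3.54 and -2.81 for Cd27 and -3.09 and -2.16 for Ltb, while each gene's adjusted p crosses the dashed line at 0.05 in several settings.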

How the data were processed

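Total RNA was depleted of ribosomal RNA and sequenced as paired reads, per the labels' protocols. The submitters' processing notes name cutadapt 1.9.3, STAR 2.5.1b, mm10 and edgeR 3.16.5, and the sources used here give no counting tool, annotation or strand setting. The deposited table gives raw counts per gene for 17761 genes, per the file headers, and its 6 per-sample columns of normalized values were not used. Counts were compared with edgeR 4.0.16 in R 4.3.3 (TMM scaling, filterByExpr with a minimum count of 10, quasi-likelihood test, two-sided, Benjamini-Hochberg over 13907 genes, threshold 0.05, SE back-calculated as the log2 fold change over the square root of F), and the script was tested on simulated data. The alternatives were each library left out, Control 1 and Model 2 left out together, a replicate block, RLE scaling, no filter, DESeq2 1.42.0 and limma-voom (limma 3.58.1). Members, gene lists and tests were chosen with earlier results of these data known. Values in each library are given for members past the test, for Tnf, Fas, Cd40, Tnfrsf1a and Tnfrsf1b, and for partners of called members. Other members described in full were chosen after their values were seen. Gene positions and exon lengths are from GENCODE M21 on GRCm38. RefSeq promoter windows were matched by symbol for 30 members. No library repeated another of its group. Floors of 3 counts cover counting error only.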

Additional observations from a re-analysis of the deposited data

How the results depend on the processing

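RLE scaling moved the median log2 fold change of all genes by -0.0040. Without a filter, 3 members were higher, 2 pathway genes lower, and 642 of all genes were higher and 469 lower. With DESeq2, 3 members and 4 pathway genes were higher, and 639 of all genes were higher and 578 lower. With limma-voom, 0 members and 0 pathway genes were lower, and 115 of all genes. With RLE scaling 1 pathway gene was higher. Without Control 1 and Model 2 together, 0 members and 0 pathway genes were lower, and 222 of all genes were higher and 63 lower. With 1 library left out, 0 to 1 members were higher and 0 to 2 lower, 0 to 1 pathway genes were higher and 0 to 1 lower, and 221 to 312 of all genes were higher and 92 to 136 lower. With the replicate number as a block, 1 member (Ltb, adjusted p = 0.0266) and 0 pathway genes were lower, and the adjusted p was 0.0577 for Cd27 and 0.0551 for Ngfr. Whether the numbers pair the samples is not settled here. Deviations of same-numbered libraries correlated at 0.147, 0.119 and 0.00367, and those of the other pairs at -0.159 to 0.0733. Control 3 correlated best with Model 2 (0.0733). With 3 libraries per group these values cannot decide it. Over 38 genes and 12 settings, 13 of 455 fold changes took the opposite sign, in 7 genes that were not called. With 1 library left out, log2 fold changes ran from -1.06 (without Model 2) to 0.62 (without Control 1) for Tnfrsf11b, with 0.29 without Model 1. They ran from -0.56 (without Model 2) to 1.28 (without Model 1) for Tnfrsf22, from -1.01 (without Model 2) to 0.47 (without Control 1) for Tnfsf8, from -7.00 (without Model 3) to 0.45 (without Control 1) for Tnfsf9, and from -0.50 (without Model 2) to 0.034 (without Control 1) for Tnfrsf11a. For Tnfrsf1b they ran from -0.28 (without Control 2) to 0.31 (without Control 1), and the value without a filter was -0.0018. Without both Control 1 and Model 2, Tnfrsf22 was at -1.11, Tnfsf11 at -0.13 and Tnfsf9 at 1.03. Among genes that kept their sign, Fas was at 0.43 and Ltbr at 0.59 without Control 1, Tnfsf10 at -0.38 without Control 3 and Tnfrsf10b at 0.49 without Model 1. The cause of these shifts was not tested. At 1 count, Tnf in Model 1 lay under the floor of 3 counts, so its level there cannot be told from 0 at this depth.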
